A study of Saccharomyces cerevisiae with 6 samples.

Results

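Yeast ribosomal proteins are made in equal numbers, and some of them limit their own synthesis by binding their own transcript or that of a paralog. The 10 genes described here are RPL30, RPS14A, RPS14B, RPS9A, RPS9B, RPL22A, RPL22B, RPL2A, RPL2B and RPS28B, taken by name from the 6692 gene rows of the series as genes whose product restrains its own or its paralog's mRNA, together with the paralogs. They are 10 of the 137 rows named for a cytosolic ribosomal protein. The question was what these mRNAs did when budding yeast (Saccharomyces cerevisiae, W303 background) lost Rio1, a protein kinase needed late in 40S subunit assembly. All 6 libraries carry RIO1-AID, a degron-tagged RIO1, and PADH1-OsTIR1, the plant F-box protein OsTIR1 under the ADH1 promoter, in cells of mating type MATa with the shared alleles ura3-1, his3-11,15, can1-100, trp1-1 and ade2-1 and a leu2 allele. The 3 depleted libraries came from cells kept 1 h in 500 µM auxin, which the 3 control libraries did not get, with growth at 23 °C in YPD in both. No library had auxin with intact Rio1, the titles call the controls wild type although the strain fields name the degron strain, and no label says that the libraries of a group grew as separate cultures, so a p-value here reflects only how far these libraries spread, which may be technical.

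How the feedback works is known for most of the genes. The L30 protein binds a structure at the start of its own transcript and blocks splicing, Rps14 does the same on the RPS14B transcript, Rpl22 binds the introns of its own genes, most of all that of RPL22B, and splicing of RPS9A is held back when Rps9 is plentiful. Rps28 instead binds a hairpin in the long 3′ UTR of RPS28B mRNA, where the decapping activator Edc3 joins it and the mRNA is degraded, and excess L2 protein lowers the level of both RPL2 mRNAs. The counts are 1 number per gene, so spliced and unspliced transcripts are not separated, and neither the proteins nor the feedback itself was measured.

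Of the 10 genes, 9 have an intron close to the start codon and RPS28B has none (R64 annotation, the assembly also called sacCer3). The first coding exon is 3 to 12 bases long and the intron 147 to 501 bases. For the 9 genes, 30 bases are shown where exon 1 meets the intron. They hold up to 4 exon bases followed by the intron, with the 6-base 5′ splice site in capitals. The stretch shown need not hold the site at which a feedback loop acts. The sequences are from the RefSeq genome, build R64, on the coding strand.
RPL30, chrVII:439091-439120, plus strand: atgGTCAGTataacatgattttataactat
RPS14A, chrIII:178188-178217, minus strand: tctaGTATGTttaatcacatagtgaacatt
RPS14B, chrX:73793-73822, plus strand: aacgGTACGTgaaaggggtgatatcctgtt
RPS9A, chrXVI:404953-404982, plus strand: ccaaGTACGTcgttaatcttctccttttaa
RPS9B, chrII:604511-604540, plus strand: ccaaGTACGTattagactatatcgaagagg
RPL22A, chrXII:263202-263231, plus strand: aaacGTATGAtactttaaaaggaatccacg
RPL22B, chrVI:64895-64924, minus strand: aaacGTACGTtaattttcgttcctatgtca
RPL2A, chrVI:221389-221418, minus strand: atggGTATGTcagcaccgtgatttaacaac
RPL2B, chrIX:316768-316797, plus strand: atggGTATGTttttattatatcgcataatt
The usual yeast 5′ splice site GTATGT starts the introns of RPS14A, RPL2A and RPL2B only. RPS14B, RPS9A, RPS9B and RPL22B start with GTACGT, RPL22A with GTATGA and RPL30 with GTCAGT, a form found in 2 of the 281 nuclear introns of at least 30 bases within annotated coding sequences. An intron start other than GTATGT thus occurs in 6 of the 9 genes (66.7%), in 23 of the 91 such introns of all ribosomal protein genes (25.3%) and in 76 of all 281 (27.0%). The branch point sequence TACTAAC was found in 7 of the 9 introns, searched on the coding strand, in 85 of the 91 introns of ribosomal protein genes (93.4%) and in 82.6% of all 281. It was not found in the introns of RPS9A and RPS9B.

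**Figure D1:**
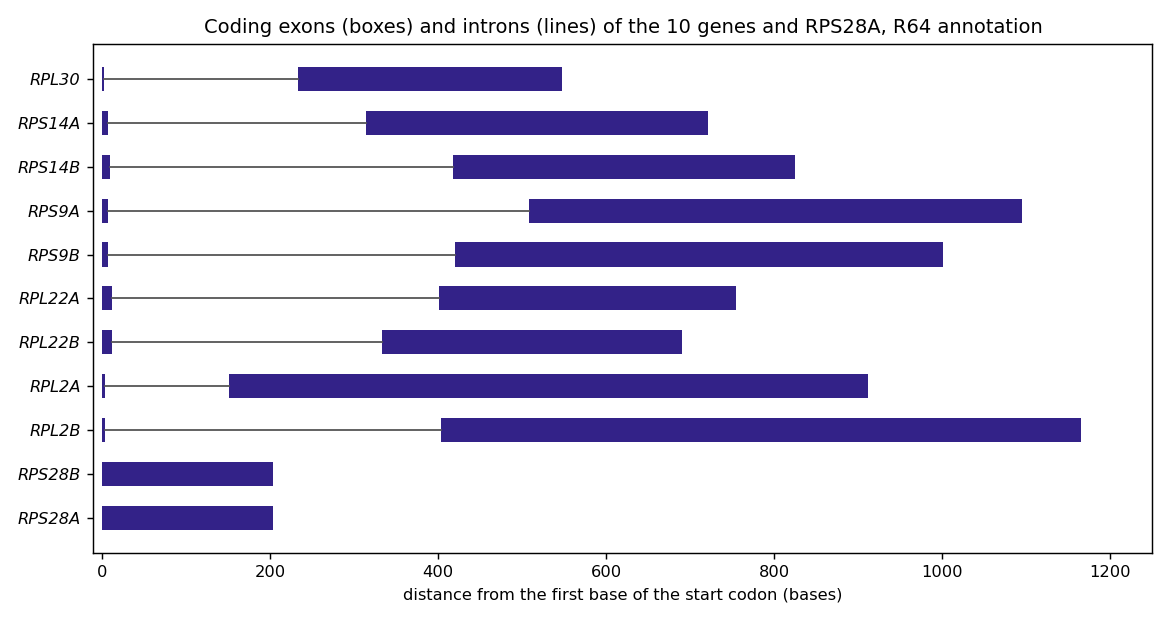
Coding exons (boxes) and introns (lines) of the 10 genes and of RPS28A, drawn to scale in bases from the start codon. The 9 genes with an intron have a first coding exon of 3 to 12 bases, whereas RPS28B and RPS28A are single exons of 204 bases.

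Because reads with more than 1 alignment are not in the gene counts, what can be counted for a paralog depends on how far the copies differ. For each pair of members the 60-base stretch of coding sequence with the most differences is shown, within 1 exon and without gaps, with the differing bases in capitals (RefSeq, R64, coding strand).
RPL22A, chrXII:263691-263750, plus strand: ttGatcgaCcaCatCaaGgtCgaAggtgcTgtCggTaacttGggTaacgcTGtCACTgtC
RPL22B, chrVI:64444-64503, minus strand: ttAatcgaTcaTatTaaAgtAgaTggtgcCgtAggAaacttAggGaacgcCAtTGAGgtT
RPS14A, chrIII:177833-177892, minus strand: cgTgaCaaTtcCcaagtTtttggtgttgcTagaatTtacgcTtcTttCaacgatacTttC
RPS14B, chrX:74219-74278, plus strand: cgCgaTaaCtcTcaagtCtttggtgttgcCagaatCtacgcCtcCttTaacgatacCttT
RPS9A, chrXVI:405670-405729, plus strand: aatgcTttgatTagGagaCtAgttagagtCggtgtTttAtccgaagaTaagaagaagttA
RPS9B, chrII:605140-605199, plus strand: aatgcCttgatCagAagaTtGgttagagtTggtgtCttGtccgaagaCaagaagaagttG
RPL2A, chrVI:220834-220893, minus strand: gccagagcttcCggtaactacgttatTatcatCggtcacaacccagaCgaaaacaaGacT
RPL2B, chrIX:317546-317605, plus strand: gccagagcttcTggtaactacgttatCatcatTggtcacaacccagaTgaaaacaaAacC
These windows hold 19, 12, 10 and 6 differences in the order RPL22, RPS14, RPS9 and RPL2. Over the whole coding sequence the copies were identical at 79.5% of aligned bases for RPL22, 91.8% for RPS9, 92.8% for RPS14, 96.3% for RPL2 and 88.2% for RPS28. RPL2A and RPL2B share an unbroken run of 188 bases, against 92 in RPS14, 76 in RPS9, 35 in RPS28 and 23 in RPL22. Of all 50-base stretches of the coding sequence, 71.5% of those in RPL2A and in RPL2B were found nowhere else in the genome. The share was 88.2% for RPS14A, 88.0% for RPS14B, 99.6% for RPL30 and 100.0% for RPL22A, RPL22B and RPS28B, and it was 518 of 545 stretches for RPS9A and 512 of 539 for RPS9B. The read length is not given in the sources used here, and for 100-base stretches the share was 84.4% for both RPL2 genes and at least 99.5% for the others. By this measure the RPL2 genes had the smallest countable share of coding sequence of the 10, and other losses of reads were not measured. A fold change of a gene rests on the same countable bases in every library only if the read lengths were equal, which was not tested.

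Gene counts summed to between 683896 and 1671136 per library, so that before scaling 1 read was worth 0.598 to 1.46 CPM (counts per 1000000 gene counts). Of all counts in a file, summary rows included, 45.2% to 65.9% were listed as alignments that were not unique, which need not be the share of reads. Depleted library 2 (4.13%) and control library 1 (1.49%) held the most counts from open reading frames of the rDNA region, of which the remaining 4 libraries had 0.0595% to 0.198%. Cells of type a were checked by their markers: the pheromone receptor gene STE2 had 251 to 534 counts per library and the alpha-cell receptor gene STE3 1 to 8. Of 6 a-cell genes 5 were tested, and of these BAR1 was lower (log2 fold change -0.38). STE6 had 409 to 709 counts, MFA2 130 to 329, BAR1 101 to 242, AGA2 17 to 49 and MFA1, which was not tested, 2 to 16. Of 4 alpha-cell genes MF(ALPHA)1 had 0 to 1 count, MF(ALPHA)2 0 to 8 and SAG1, the only one tested, 16 to 45. AGA2 and MFA1 thus overlapped in counts with alpha-cell genes. SAG1 rose 1.78-fold (edgeR adjusted p = 0.0395), and the part of this rise in the results was not tested. The mRNA of the targeted gene, RIO1, rose from 65.0 ± 1.87 to 112 ± 18.0 CPM (SD, n = 3 each, edgeR adjusted p = 0.00159). Against a threshold of 1.5-fold the RIO1 rise was not called (glmTreat adjusted p = 0.355). Depletion by the degron happens at the protein, which the mRNA level does not check.

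All 10 genes fell in the depleted libraries. Each was called lower by edgeR at an adjusted p under 0.05, where 14.1% of all 5195 tested genes and 97.6% of the other 125 tested ribosomal protein genes (122) were called lower: 10 of 10 is a share near that of the other ribosomal protein genes. Their median log2 fold change was -1.53, beside -1.47 for the other ribosomal protein genes and 0.01 for all tested genes. The depleted and control libraries did not overlap for any of the 10, as was the case with a fall for 20.0% of all tested genes and 96.8% of the other ribosomal protein genes. The falls ranged from 1.78-fold in RPS14A to 5.59-fold in RPL22B. Counts are shares of a library, so a fall is relative to the transcripts of other genes, and fewer cells with a transcript cannot be told apart from less of it per cell. With library totals as the only scaling, the median over all tested genes was 0.31 higher (log2), and the 10 genes were still called lower, at a median of -1.21, while over all genes 313 were then lower and 1748 higher, against 735 and 734 with TMM scaling.

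**Figure D2:**
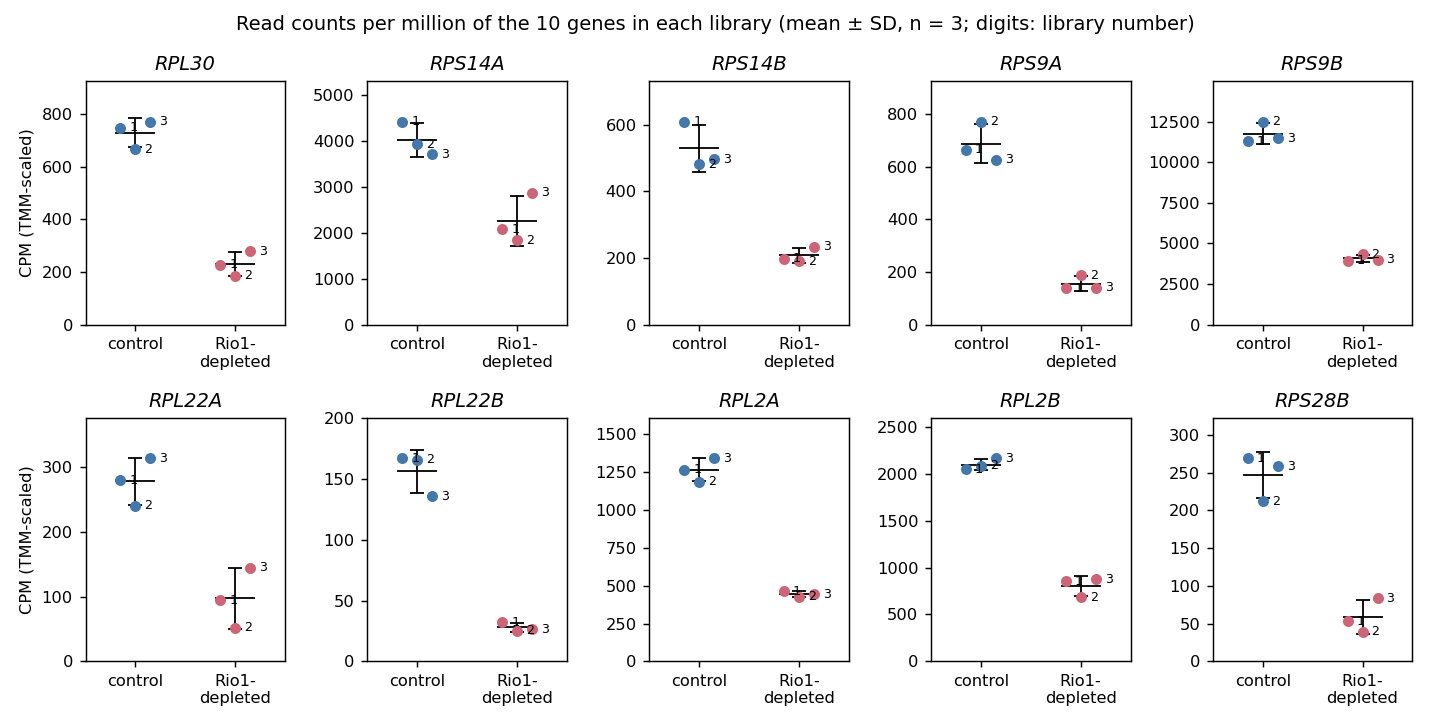
TMM-scaled CPM of each of the 10 genes in the 3 control and 3 depleted libraries (points, numbered by library), with the mean and SD of each group. Vertical axes start at 0 and differ between panels; no depleted point reaches a control point of the same gene.

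Per length, the order of abundance was led by RPS9B and RPS14A. In control libraries RPS9B stood at 20001 ± 1100 CPM per kilobase of coding sequence and RPS14A at 9698 ± 876 (SD, n = 3 each). RPL2B (2741 ± 77.7), RPL30 (2294 ± 174) and RPL2A (1654 ± 100) followed without overlap of their libraries, with the RPL2 genes lowered by uncounted reads. RPS14B (1269 ± 168), RPS28B (1209 ± 148) and RPS9A (1159 ± 127) overlapped with each other, and RPL22A (761 ± 99.6) and RPL22B (425 ± 47.6) came last. In depleted libraries RPS9B (6963 ± 385) and RPS14A (5461 ± 1300) again led, and their libraries now overlapped, since RPS14A reached 6934 in depleted library 3 and RPS9B was at 6685 in depleted library 1. RPL2B (1054 ± 140) came next, followed by RPL30 (727 ± 146) and RPL2A (581 ± 23.8), which overlapped, and by RPS14B (mean 498, from 457 to 560), which reached the lowest RPL2A library. RPS9A (262 ± 47.3) and RPL22A (266 ± 127) then overlapped with each other and with RPS28B (288 ± 112), and RPL22B was lowest in every library, at 76.1 ± 10.3 CPM per kilobase.

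RPS14A and RPS14B encode the small-subunit protein that lies near the 3′ end of the 18S rRNA. RPS14A (YCR031C, chrIII:177500-178220), the major copy, gave 4413, 3928 and 3704 CPM in the controls (libraries 1 to 3) and 2070, 1842 and 2871 CPM after depletion (libraries 1 to 3). Depleted library 3 was the highest of its group and still below every control library. The log2 fold change was -0.83 ± 0.14 (SE), or 1.78-fold lower (edgeR adjusted p = 0.000207), the smallest fall of the 10, and 128 of the 135 tested ribosomal protein genes fell more. It was the only one of the 10 not called against a threshold of 1.5-fold (glmTreat adjusted p = 0.152). RPS14B (YJL191W, chrX:73787-74611), whose transcript Rps14 binds, gave 609, 481 and 497 CPM in the controls and 198, 191 and 234 CPM after depletion. It fell 2.54-fold, with a log2 fold change of -1.34 ± 0.12 (edgeR adjusted p = 9.331e-08).

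Read as a ratio within each library, RPS14A had 7.24, 8.16 and 7.45 counts for each RPS14B count in control libraries 1 to 3 and 10.4, 9.64 and 12.3 in depleted libraries 1 to 3. Here and below, paralog ratios were computed after adding 0.5 to each count. The groups did not overlap, and the ratio was higher in the depleted libraries by 0.49 ± 0.15 on the log2 scale (SE; 95% interval 0.17 to 0.82; limma adjusted p = 0.0182). The ratio test covered 57 ribosomal protein gene pairs, of which 43.9% changed and 50.9% did not overlap between the groups. That background of 25 changed pairs was 13 without control library 2, 16 without control library 1 and 15 by edgeR diffSpliceDGE. Without control library 1, 2 or 3 the RPS14 call was lost (limma adjusted p = 0.0706, 0.0589 and 0.0537), with changes of 0.46, 0.55 and 0.48.

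RPS9A and RPS9B encode a small-subunit protein that binds early to the 18S rRNA. RPS9A (YPL081W, chrXVI:404950-406044), the minor copy, gave 666, 772 and 627 CPM in the controls (libraries 1 to 3) and 139, 188 and 140 CPM after depletion (libraries 1 to 3). The highest depleted library, at 188 CPM, lay far below the lowest control, at 627 CPM. It fell 4.39-fold, with a log2 fold change of -2.14 ± 0.14 (edgeR adjusted p = 1.173e-09), the eighth largest fall among the 135 ribosomal protein genes. RPS9B (YBR189W, chrII:604508-605508), the most abundant of the 10, gave 11310, 12498 and 11473 CPM in the controls and 3931, 4353 and 4000 CPM after depletion. Its libraries lay close together in both groups, and it fell 2.87-fold (log2 fold change -1.52 ± 0.10, edgeR adjusted p = 9.641e-10).

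The minor RPS9 copy lost more than the major one. RPS9A had 0.0590, 0.0618 and 0.0546 counts for each RPS9B count in control libraries 1 to 3 and 0.0355, 0.0433 and 0.0351 in depleted libraries 1 to 3. The groups did not overlap, and the log2 ratio was lower by 0.63 ± 0.15 in the depleted libraries (change -0.63, 95% interval -0.95 to -0.31; limma adjusted p = 0.00395). The call was kept without any 1 library, with changes from -0.73 to -0.58. Among all 57 tested pairs, 43.9% changed and 50.9% did not overlap between the groups.

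RPS28B (YLR264W, chrXII:673131-673334) encodes one form of a small protein of the 40S subunit, and RPS28A (YOR167C, chrXV:648804-649007), which is not among the 10, encodes the other. RPS28B gave 269, 212 and 259 CPM in the controls (libraries 1 to 3) and 53.2, 39.2 and 83.8 CPM after depletion (libraries 1 to 3), with 41 to 85 counts behind each depleted value. Depleted library 2 was the lowest and depleted library 3 the highest of their group, and both lay far below the controls. It fell 4.20-fold (log2 fold change -2.07 ± 0.19, edgeR adjusted p = 1.15e-07), the tenth largest fall of the 135. RPS28A gave 895, 533 and 652 CPM in the controls and 320, 391 and 368 CPM after depletion, and fell 1.92-fold (log2 fold change -0.94 ± 0.16, edgeR adjusted p = 0.000138). Among the 135 genes, 123 fell more than RPS28A. RPS28A was not called against a threshold of 1.5-fold (glmTreat adjusted p = 0.0549).

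The ratio of RPS28A to RPS28B counts was 3.32, 2.51 and 2.52 in control libraries 1 to 3 and 5.96, 9.88 and 4.37 in depleted libraries 1 to 3. Every depleted library was above every control, and the log2 ratio was higher by 1.21 ± 0.27 (95% interval 0.63 to 1.78; limma adjusted p = 0.00255), the fourth largest change in either direction among the 57 pairs. Of these pairs, 43.9% changed and 50.9% did not overlap between the groups. Depleted library 2, which also had the most rDNA counts, had the highest ratio, and without it the change was 0.89 (limma adjusted p = 0.00561). The part of that library's rDNA reads in this result was not tested, beyond leaving the library out.

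A row beside RPS28B moved with it. YLR264C-A, a small open reading frame of 117 bases on the other strand (chrXII:673828-673944), lies 493 bases past the RPS28B stop codon, and RPS28B mRNA is known for a long 3′ UTR that extends in this direction. This row was chosen after its values were seen. It had 14, 25 and 22 counts in control libraries 1 to 3 and 1, 2 and 4 in depleted libraries 1 to 3, a fall of 7.48-fold (log2 fold change -2.90 ± 0.48, edgeR adjusted p = 0.000141) that rests on few reads. Whether strand was used in counting is not given in the sources used here, so these reads cannot be assigned to either strand.

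RPL30 (YGL030W, chrVII:439091-439638) encodes a large-subunit protein at the interface with the small subunit and has no paralog. It gave 749, 667 and 772 CPM in the controls (libraries 1 to 3) and 228, 186 and 279 CPM after depletion (libraries 1 to 3). The groups were wide apart, with 667 CPM in the lowest control and 279 CPM in the highest depleted library. It fell 3.16-fold (log2 fold change -1.66 ± 0.14, edgeR adjusted p = 2.865e-08), and 33 of the 135 ribosomal protein genes fell more.

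RPL22A and RPL22B encode a large-subunit protein that yeast can grow without. RPL22A (YLR061W, chrXII:263194-263948), the major copy, gave 280, 241 and 314 CPM in the controls (libraries 1 to 3) and 94.7, 52.2 and 145 CPM after depletion (libraries 1 to 3). The depleted libraries had the widest spread, relative to their mean, of the 10 genes, with library 2 lowest and library 3 highest. RPL22A fell 2.90-fold (log2 fold change -1.53 ± 0.22, edgeR adjusted p = 2.684e-05). Without depleted library 3 the log2 fold change was -1.99 and without depleted library 2 it was -1.20, both called. A row named YLR062C, next to RPL22A by its systematic name and without a RefSeq entry, had 0 to 4 counts per library. Reads that 2 annotated genes share are counted for neither, so the level of RPL22A could be too low, and the amount was not tested.

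RPL22B (YFL034C-A, chrVI:64243-64932), the copy under the stronger feedback, gave 167, 166 and 136 CPM in the controls (libraries 1 to 3) and 32.4, 25.2 and 26.6 CPM after depletion (libraries 1 to 3), from 25 to 29 counts each in the latter. The highest depleted library, at 32.4 CPM, lay far below the lowest control, at 136 CPM. It fell 5.59-fold (log2 fold change -2.48 ± 0.18, edgeR adjusted p = 6.855e-09), the second largest fall of the 135 ribosomal protein genes. The ratio of RPL22A to RPL22B counts was 1.67, 1.45 and 2.30 in the controls and 2.88, 2.05 and 5.36 in the depleted libraries, and the groups overlapped. The change of 0.84 ± 0.44 on the log2 scale (95% interval -0.08 to 1.75) did not pass the test (limma adjusted p = 0.137). Without depleted library 2 it was 1.15 and passed (limma adjusted p = 0.0090), and without depleted library 3 it was 0.46 (limma adjusted p = 0.341).

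RPL2A and RPL2B encode the same protein, which lies close to the peptidyl transferase centre of the large subunit. RPL2A (YFR031C-A, chrVI:220507-221418) gave 1267, 1188 and 1341 CPM in the controls (libraries 1 to 3) and 463, 427 and 445 CPM after depletion (libraries 1 to 3). It fell 2.85-fold (log2 fold change -1.51 ± 0.12, edgeR adjusted p = 1.355e-08). RPL2B (YIL018W, chrIX:316768-317932) gave 2046, 2083 and 2163 CPM in the controls and 857, 683 and 879 CPM after depletion. It fell 2.60-fold (log2 fold change -1.38 ± 0.13, edgeR adjusted p = 9.163e-08).

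For the 2 RPL2 copies no change of proportion was detected. The ratio of RPL2A to RPL2B counts was 0.619, 0.570 and 0.620 in control libraries 1 to 3 and 0.540, 0.624 and 0.506 in depleted libraries 1 to 3, and the groups overlapped. The change of -0.12 ± 0.15 on the log2 scale did not pass the test (limma adjusted p = 0.560), and its 95% interval of -0.44 to 0.20 leaves room for a change of either sign within that range. Of the 5 pairs, the RPL2 pair has the most nearly identical copies.

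**Figure D3:**
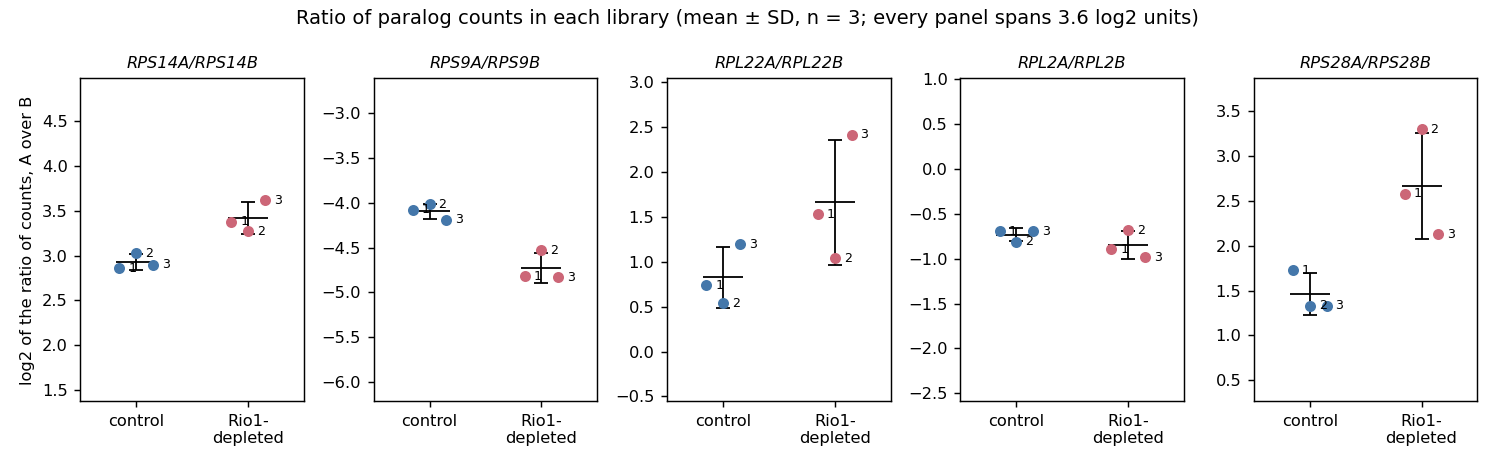
Log2 of the ratio of counts, A copy over B copy, in each of the 6 libraries for 5 pairs, with group means and SD. The groups stand apart for RPS14, RPS9 and RPS28 and overlap for RPL22 and RPL2. Over all 57 tested ribosomal protein gene pairs, the groups did not overlap in 50.9%.

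**Figure D4:**
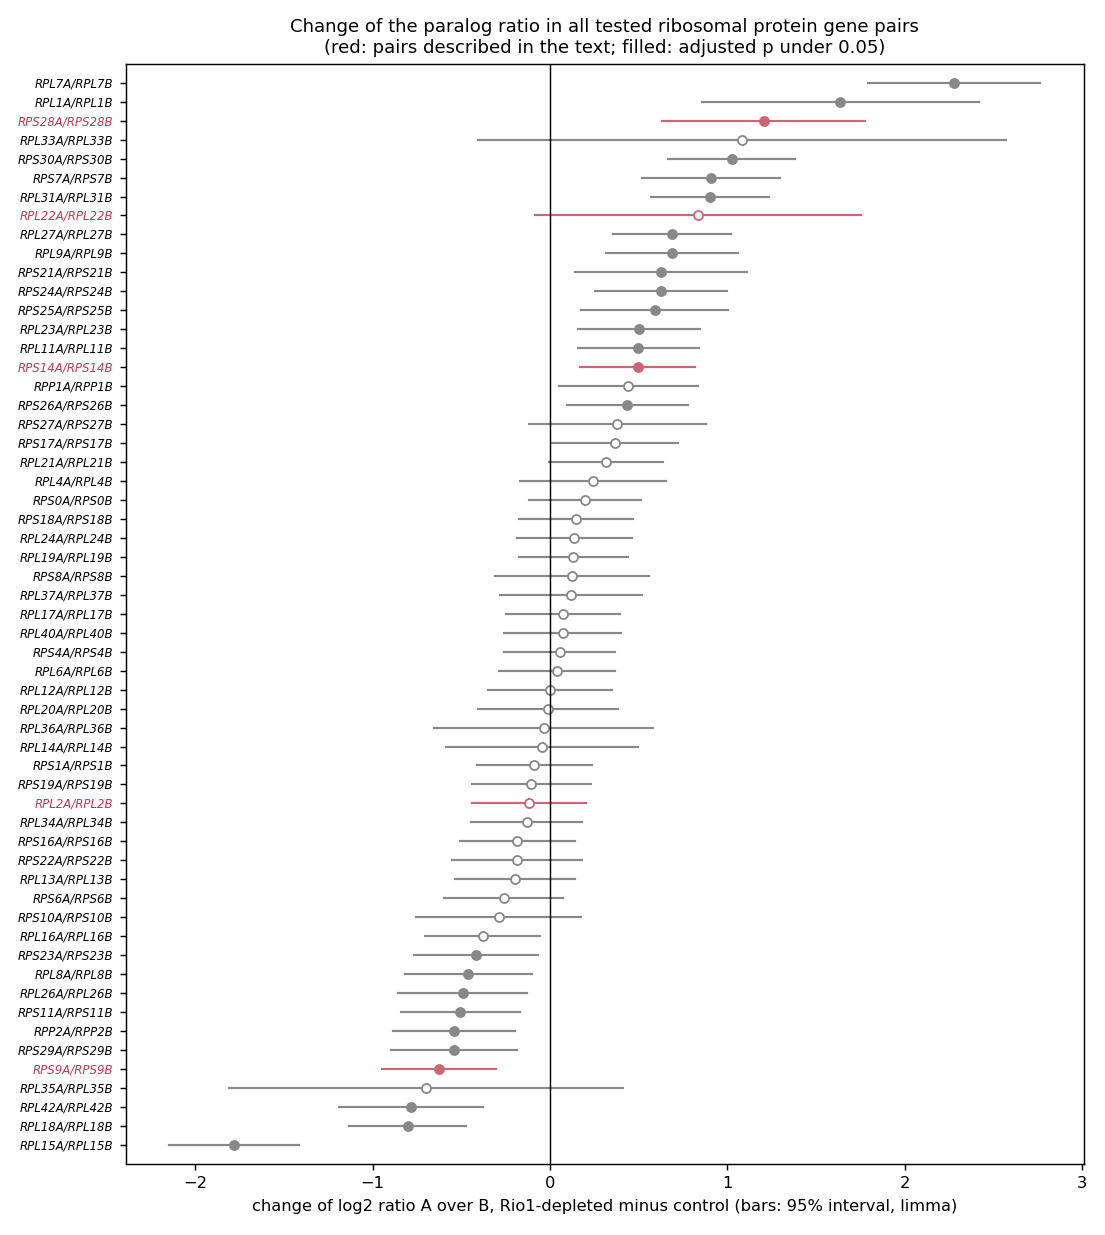
Change of the log2 paralog ratio, depleted minus control, with 95% intervals for the 57 tested ribosomal protein gene pairs; filled points passed an adjusted p of 0.05. The pairs described here (red) lie among the others, at 1.21 for RPS28, 0.84 for RPL22, 0.49 for RPS14, -0.12 for RPL2 and -0.63 for RPS9.

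Scaled to the ribosomal protein genes as a group, the 10 genes took 7.83% ± 0.25 of ribosomal protein gene counts in the controls and 8.22% ± 0.57 in the depleted libraries (SD, n = 3 each; exact two-sided permutation p = 0.4), and 3 libraries against 3 cannot give a p below 0.1. Most of this sum is RPS9B, which went from 4.23% ± 0.30 to 4.01% ± 0.18, and RPS14A, so it says little of the other 8. All ribosomal protein genes together went from 24.9% ± 0.23 to 11.4% ± 0.15 of gene counts. The RPS14A share of ribosomal protein gene counts went from 1.44% ± 0.11 to 2.22% ± 0.52. RPS9A went from 0.248% ± 0.030 to 0.152% ± 0.026, and RPL22B from 0.0563% ± 0.0061 to 0.0276% ± 0.0043. For these 3 the groups did not overlap (exact permutation p = 0.1, the smallest possible), and for the other 7 members they did. Of the other 125 tested ribosomal protein genes, 26.4% did not overlap in this share, in either direction, so 3 of 10 is near that background. RPS28B, at 0.0886% ± 0.0097 and 0.0576% ± 0.022, overlapped through depleted library 3.

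**Figure D5:**
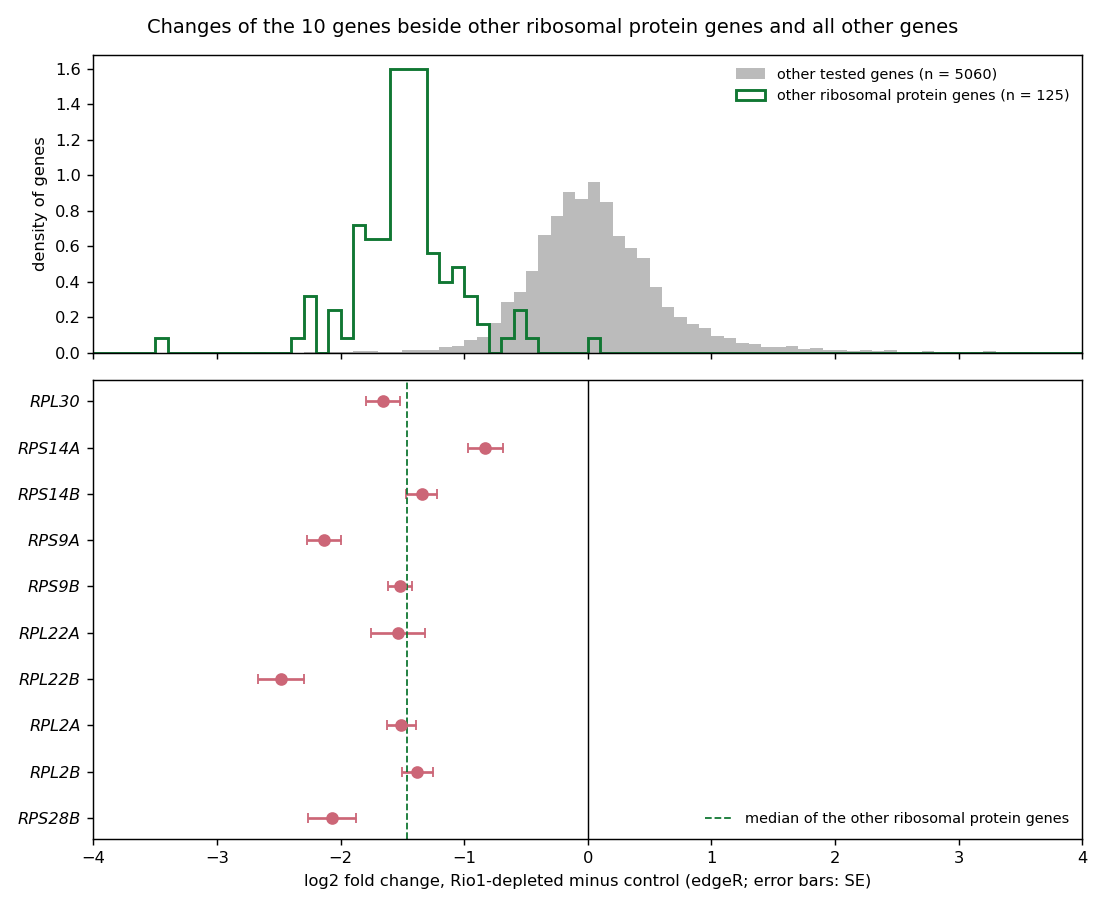
Log2 fold changes, depleted minus control, of the 10 genes with their SE (lower panel) and of the other 125 tested ribosomal protein genes and 5060 other tested genes (upper panel, histograms as densities). The 10 genes span -2.48 to -0.83 around the median of the other ribosomal protein genes, -1.47 (dashed line).

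The median falls of ribosomal protein genes with and without an intron were close. The 79 other tested ribosomal protein genes with an intron had a median log2 fold change of -1.48, and the 46 without one -1.42. Of those with an intron, the 63 that start with GTATGT had a median of -1.48 and the 16 that start otherwise -1.51, with 62 and 16 called lower. Among 147 tested nuclear genes with an intron that encode no ribosomal protein, 13 were lower, 16 were higher and the median was -0.05.

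Genes for RNA decay, splicing and the transcription of ribosomal protein genes are read against a background of 14.1% of all tested genes lower and 14.1% higher. Whether the feedback relied on them in these cells was not tested. Of 16 genes for decapping and 5′ to 3′ decay, which remove RPS28B mRNA, 1 was lower and none higher: DCP1, a subunit of the decapping enzyme, went from 89.8 ± 4.70 to 62.5 ± 7.46 CPM (edgeR adjusted p = 0.0290). Of 4 genes of nonsense-mediated decay, which degrades unspliced transcripts that reach the ribosome, NMD2 rose 1.33-fold and the other 3 were not called. Of 7 genes for nuclear RNA turnover, 3 rose, led by NRD1 (from 226 ± 9.34 to 577 ± 74.4 CPM, edgeR adjusted p = 5.224e-08) and NAB3 (1.69-fold), which together bind nuclear transcripts and end their transcription, and RRP6 (1.33-fold), a nuclear exosome nuclease.

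Of 23 early spliceosome genes, 2 were higher and 2 lower, and the median log2 fold change was -0.03. PRP5 (1.66-fold) and RSE1 (1.64-fold), which act with the U2 snRNP, rose, and NAM8, a protein of the U1 snRNP, fell 1.75-fold. Of 8 tested genes for transcription of ribosomal protein genes, RAP1, which binds most of their promoters, fell 1.34-fold (edgeR adjusted p = 0.00972) and the others were not called.

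The profile most like each gene was sought among tested genes outside the 10, as the smallest Euclidean distance between centred log2 CPM values over the 6 libraries. It was that of another ribosomal protein gene for RPL30 (RPL43B), RPS14B (RPL9A), RPS9A (RPS31), RPS9B (RPS19B), RPL22B (RPS3), RPL2A (RPL16B) and RPS28B (RPS21B). For RPS14A it was the cell wall gene TOS1, and for RPL22A the row YLL044W. By its systematic name YLL044W is next to the ribosomal protein gene RPL8B (YLL045C). Whether its counts come from RPL8B transcripts was not tested. Among these pairs RPS14B and RPL9A were the closest, at a distance of 0.11, and RPS28B and RPS21B the farthest, at 0.50.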

How the data were processed

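The deposited files hold raw counts of reads per gene, 1 file per library, made by the authors with TopHat2 2.0.8, HTSeq and DESeq on sacCer3, per the submitters' processing notes. Which tool did what, whether strand was used and which annotation was counted are not given in these sources. Libraries were made from total RNA after rRNA removal, per the labels' protocols. The 5 summary rows were left out; reads with several alignments are among them. Of 6692 rows, 6008 matched the RefSeq table of R64, which is the build called sacCer3.

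Samples were grouped by the label that states depletion or control. The gene test was that of edgeR 4.0.16 under R 4.3.3 (TMM scaling, filterByExpr with a minimum count of 10 and a minimum total of 15, quasi-likelihood F test, Benjamini-Hochberg over the 5195 tested genes). Calls are at an adjusted p under 0.05. SE is the absolute log2 fold change over the square root of F, and CPM uses TMM-scaled totals. Paralog ratios were computed from counts plus 0.5, also where printed per library. Their log2 was tested with limma 3.58.1 over all 57 pairs of A and B genes that passed the filter, of 59. Shares were compared by exact permutation over libraries (scipy 1.17.1), and coding sequences aligned with Biopython 1.88. Both fits were tested on simulated data. The members, lists and tests were chosen with earlier results of these data known. Named genes are the 10, RPS28A, RIO1, up to 3 called genes with the largest change per list, and the nearest profiles (1 is not reported here); the mating-type genes, YLR062C and YLR264C-A were added after their values were seen. The alternatives were other scalings, filters and tools (DESeq2 1.42.0 among them), a replicate block, and leaving out libraries. Libraries of a group were not identical and differed by more than sampling noise (chi-square per degree of freedom 2.53 to 10.7).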

Additional observations from a re-analysis of the deposited data

How the results depend on the processing

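All 10 genes were called lower, and none higher, under 15 of the 16 alternatives, and 9 under glmTreat against 1.5-fold, where RPS14A was not called. No fold change of a member, and no ratio change of the 5 pairs, turned its direction under the alternatives tried. Over all genes, 735 were lower and 734 higher, against 313 and 1748 with library totals only and 190 and 204 by glmTreat. With library totals only, the median log2 fold change over all tested genes was 0.31 higher, and which scaling is nearer to the true levels was not tested. Of 57 pairs, 25 changed, against 15 by edgeR diffSpliceDGE and 13 to 25 when 1 library was left out (13 without control library 2 and 16 without control library 1); the cause was not tested. The members' share of ribosomal protein gene counts was higher by 0.39 percentage points in the depleted libraries, and by 0.074 to 0.63 when 1 library was left out. Without depleted library 2 and control library 1, an alternative chosen after seeing the data, 10 members and 22 pairs were called and the RPL22 ratio change was 1.11 (limma adjusted p = 0.0490). The replicate numbers are shared between the groups, but same-numbered libraries did not deviate together (correlations of -0.057, -0.001 and 0.077); with the number as a block, 756 genes were lower and 741 higher, with 10 members lower and 25 pairs changed. Counts of 25 to 85 per depleted library limit the precision for RPL22B and RPS28B. The SE of the log2 fold change was largest for RPL22A (0.22), which had 60 to 147 counts per depleted library.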
